A study of Vitis vinifera with 36 samples.

Results

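Phenylalanine ammonia-lyase (PAL) and cinnamate 4-hydroxylase (C4H) catalyse the first steps of the phenylpropanoid pathway, and 10 grape (Vitis vinifera) loci listed under these enzymes were followed through berry ripening. The loci were chosen by identifier, with earlier results of these data known. There were 8 PAL loci, of which 1 carries chromosome 6 in its identifier (VIT_206s0004g02620), 1 chromosome 8 (VIT_208s0040g01710), 1 chromosome 13 (VIT_213s0019g04460) and 5 chromosome 16 (VIT_216s0039g01100, VIT_216s0039g01170, VIT_216s0039g01240, VIT_216s0039g01300 and VIT_216s0039g01360). The 2 C4H loci carry chromosome 6 (VIT_206s0004g08150) and chromosome 11 (VIT_211s0078g00290). All 10 were among the 28119 genes listed in the tables, and all 10 were among the 19736 genes that passed the filter on low counts. The files do not pair identifiers with gene names, so the enzyme names rest on the list and were checked against no annotation.

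RNA was sequenced from deseeded berries (whole pericarp, that is skin and flesh) of the table grape cultivars Muscat Superior and Victoria. The vines were 7 years old, grafted onto an unknown rootstock, grown under rain shelter in southern China, and cropped in summer and again in winter. Buds of both crops were forced with hydrogen cyanamide after pruning, and the vines were also stripped of leaves by hand in August before the winter crop. Sampling followed the E-L (Eichhorn-Lorenz) staging of grape growth, with E-L 35 at the onset of veraison, when berries soften. E-L 36 berries had intermediate sugar, and those of E-L 38 were ripe for harvest. The 12 groups were thus winter Muscat Superior, summer Muscat Superior, winter Victoria and summer Victoria at each stage, with 3 biological replicates a group and 50 berries from each replicate. Crop, season and sampling date cannot be told apart, nor can fewer cells of a type and less RNA per cell in whole-pericarp RNA.

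PAL removes ammonia from phenylalanine to give cinnamate, and C4H, a cytochrome P450, hydroxylates cinnamate to p-coumarate. 4-Coumarate-CoA ligase (4CL) then makes the CoA ester that chalcone synthase (CHS) draws into flavonoids and anthocyanins, stilbene synthase (STS) into resveratrol and other stilbenes, and the monolignol enzymes into lignin precursors. In grape berries the pathway is known for pigments and tannins of the skin and for stilbenes made during ripening and under stress.

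The libraries held 5624449 to 18606068 counts, with a median of 10599908, at which 3 counts in a library equal 0.136 to 0.481 CPM (counts scaled to a common library size). The counts of the chromosome 6 and 13 PAL loci and of the chromosome 6 C4H locus were whole numbers in all 36 libraries (within 0.005). Those of the other 7 loci were almost always fractional, as in estimates that divide reads between loci they match alike, so the split among the 5 chromosome 16 PAL loci, and between them and the chromosome 8 locus, is uncertain. Replicates of the winter crop were unusually alike. In 8 of the 36 replicate pairs, all from winter, counts differed by a chi-square of 1.45 to 1.92 per degree of freedom, against 2.51 to 57.7 in the other pairs. Alike in this way were the 3 winter Muscat Superior libraries at E-L 35 and the 3 winter Victoria libraries at E-L 36, as were winter Muscat Superior replicates 1 and 2 at E-L 36 and winter Victoria replicates 2 and 3 at E-L 38. Nothing in the labels shows whether these came from separate vines, and standard errors and p-values that rest on them can be too small. Summer Victoria replicate 1 at E-L 36 stood apart from its group, as did winter Victoria replicate 3 at E-L 35 at the chromosome 16 loci. Other libraries differed from their partners over the genes at large too. Among them was summer Muscat Superior replicate 1 at E-L 36 (57.1 and 31.1 per degree of freedom, against 12.7 between its partners). Winter Muscat Superior replicate 3 at E-L 36 was another (28.3 and 27.9, against 1.48). Of 5 loci recalled as ripening-berry genes, 4 had reads in every library and VIT_202s0025g04250 was at 0 in some. VIT_206s0004g02560 had 687.51 to 18328.97 FPKM, while VIT_205s0094g00350 had 2100.53 to 5263.2 FPKM in Muscat Superior and only 2.41 to 68.12 FPKM in Victoria. No loci of seed, leaf or rachis were available to be looked at, so their part in the results was not tested.

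Over all 36 libraries the C4H locus on chromosome 6 had the highest mean level, 31.2 FPKM (the authors' deposited unit, fragments scaled to transcript length and library size). The PAL loci on chromosomes 13 and 6 followed with 25.9 and 19.5 FPKM. VIT_216s0039g01100 had a mean level of 12.5 FPKM and the chromosome 8 PAL locus 9.70 FPKM. The other 4 chromosome 16 loci lay between 3.02 FPKM (VIT_216s0039g01240) and 6.35 FPKM (VIT_216s0039g01170). The chromosome 11 C4H locus stood last with 0.721 FPKM and supplied a mean of 0.453% to 4.65% of the summed C4H level in the 12 groups, so that nearly all C4H signal came from 1 locus.

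**Figure D1:**
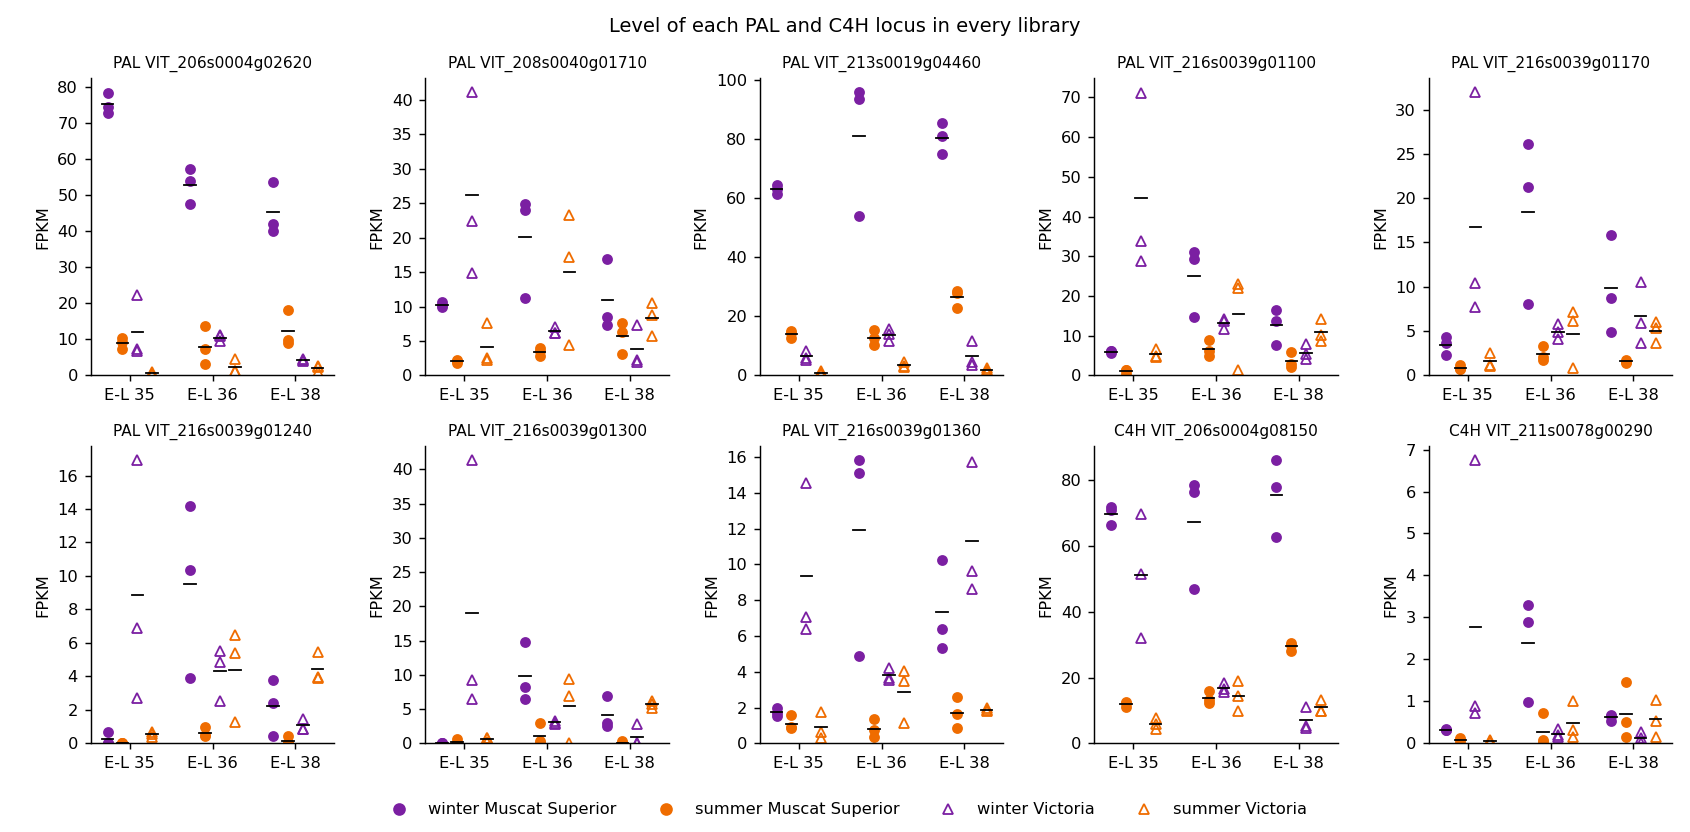
Level of each PAL and C4H locus in FPKM (linear axes from 0) at E-L 35, E-L 36 and E-L 38, with a point for each library and a short black line at the mean of winter Muscat Superior, summer Muscat Superior, winter Victoria and summer Victoria (n = 3 each). The PAL loci on chromosomes 6 and 13 lie highest in winter Muscat Superior at every stage, and 5 of the other PAL loci have their highest library in winter Victoria at E-L 35.

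The PAL locus on chromosome 6 had its highest levels in winter Muscat Superior. At E-L 35 its level was 72.61, 78.38 and 74.35 FPKM in winter Muscat Superior, against 7.33, 9.26 and 10.35 FPKM in summer Muscat Superior. In Victoria at that stage it was 22.33, 6.85 and 7.20 FPKM in the winter crop, against 0.94, 0.28 and 0.41 FPKM in the summer crop. Winter and summer libraries did not overlap in either cultivar, and the summer Victoria libraries were the lowest of the 36. At E-L 36 the level was 57.11, 53.99 and 47.40 FPKM in winter and 3.19, 13.57 and 7.21 FPKM in summer Muscat Superior, and 11.18, 10.85 and 9.41 FPKM in winter and 4.50, 1.34 and 1.23 FPKM in summer Victoria. At E-L 38 it was 40.09, 53.62 and 42.00 FPKM in winter and 8.98, 18.15 and 9.75 FPKM in summer Muscat Superior, and 4.19, 4.55 and 4.02 FPKM in winter and 2.31, 0.99 and 2.48 FPKM in summer Victoria. Again no winter library overlapped the summer libraries of its cultivar. Ordered by mean, winter Muscat Superior at E-L 35 came first and summer Victoria at E-L 35 last, and 8 of the 11 neighbouring groups in that order overlapped.

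The PAL locus on chromosome 13 separated the crops and the cultivars still more cleanly. At E-L 35 it had 63.25, 61.37 and 64.38 FPKM in winter and 14.92, 14.29 and 12.77 FPKM in summer Muscat Superior, and 8.11, 5.96 and 5.28 FPKM in winter and 1.41, 0.59 and 0.94 FPKM in summer Victoria. At E-L 36 it had 95.84, 93.58 and 54.12 FPKM in winter and 12.81, 15.49 and 10.15 FPKM in summer Muscat Superior, and 13.90, 15.64 and 11.77 FPKM in winter and 3.27, 4.66 and 2.98 FPKM in summer Victoria. The third winter Muscat Superior library was thus well below its 2 near-identical partners but still above every summer library. At E-L 38 it had 81.12, 85.61 and 75.05 FPKM in winter and 22.76, 27.89 and 28.74 FPKM in summer Muscat Superior, and 11.51, 3.52 and 4.49 FPKM in winter and 1.98, 1.12 and 2.50 FPKM in summer Victoria. Winter and summer libraries did not overlap at any stage in either cultivar, and 6 of the 11 neighbours in the order of group means overlapped.

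The chromosome 16 loci followed another course. VIT_216s0039g01100, the highest of the 5, had 28.86, 33.91 and 71.23 FPKM in winter Victoria at E-L 35, against 6.65, 4.60 and 4.93 FPKM in summer Victoria. In Muscat Superior at that stage it had 5.58, 6.20 and 6.20 FPKM in winter, against 1.33, 1.31 and 0.35 FPKM in summer. Here the winter Victoria libraries were above all Muscat Superior libraries, the reverse of the order at the chromosome 6 and 13 loci. At E-L 36 it had 31.18, 29.41 and 14.66 FPKM in winter and 8.89, 6.14 and 4.82 FPKM in summer Muscat Superior, and 13.74, 14.21 and 11.65 FPKM in winter and 1.35, 23.02 and 21.99 FPKM in summer Victoria. At E-L 38 it had 13.62, 16.58 and 7.56 FPKM in winter and 5.80, 2.84 and 2.15 FPKM in summer Muscat Superior, and 7.79, 4.07 and 5.32 FPKM in winter and 14.11, 10.26 and 8.69 FPKM in summer Victoria. By harvest ripeness every summer Victoria library was thus above every winter Victoria library.

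Summed over the 8 loci, PAL came from different loci in the cultivars of the winter crop at E-L 35. Winter Victoria replicates 1 and 2, at 107.2 and 93.1 FPKM, were below every winter Muscat Superior library (157.5 to 161.5 FPKM). Replicate 3, which stood apart at the chromosome 16 loci, was above them at 229.6 FPKM. The sum was 159.8 ± 2.09 FPKM in winter Muscat Superior and 143.3 ± 75.1 FPKM in winter Victoria (SD, n = 3). The chromosome 6 and 13 loci supplied 86.4 ± 0.142% of it in winter Muscat Superior and 15.9 ± 11.6% in winter Victoria, and the 5 chromosome 16 loci 7.11 ± 0.284% of it in winter Muscat Superior and 65.5 ± 9.90% in winter Victoria. Over all 18 libraries of each cultivar, the share of the chromosome 6 and 13 loci ran from 43.8% to 86.5% in Muscat Superior (median 76.6%) and from 5.44% to 46.4% in Victoria (median 13.05%). Only 1 library of Victoria lay above the lowest of Muscat Superior, and it was summer Victoria replicate 1 at E-L 36, which stood apart at the chromosome 16 loci. The group means of the chromosome 16 share were 7.11% to 32.8% in Muscat Superior and 48.8% to 70.0% in Victoria. These shares describe the deposited levels and carry no test. The sum leaves out further loci placed by identifier among the chromosome 16 PAL loci. Of these VIT_216s0039g01160 had a mean of 10.9 FPKM over all libraries (6.25 to 16.95 FPKM) and VIT_216s0039g01120 one of 5.22 FPKM. VIT_216s0039g01280, VIT_216s0039g01110 and VIT_216s0039g01130 had 4.11, 3.21 and 3.00 FPKM, and the others less. The shares above would change with these loci counted, by an amount that was not worked out.

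**Figure D2:**
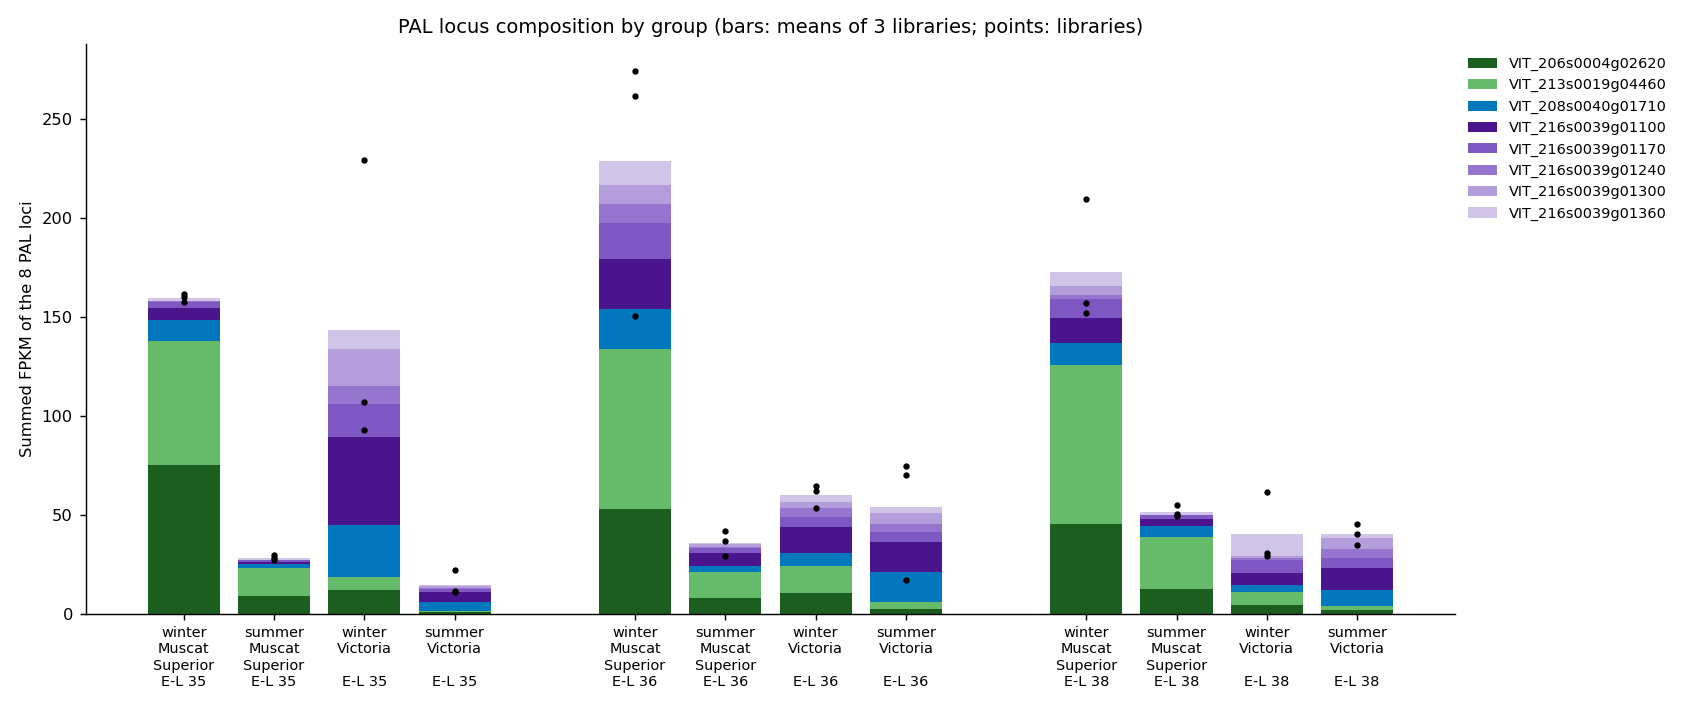
Summed level of the 8 PAL loci in FPKM (linear axis from 0) in the 12 groups, with stacked bars for the group mean of each locus and points for the sum in each of the 3 libraries. The green segments (chromosomes 6 and 13) fill most of the Muscat Superior bars, and the purple segments (chromosome 16) are the largest part of the Victoria bars.

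**Figure D3:**
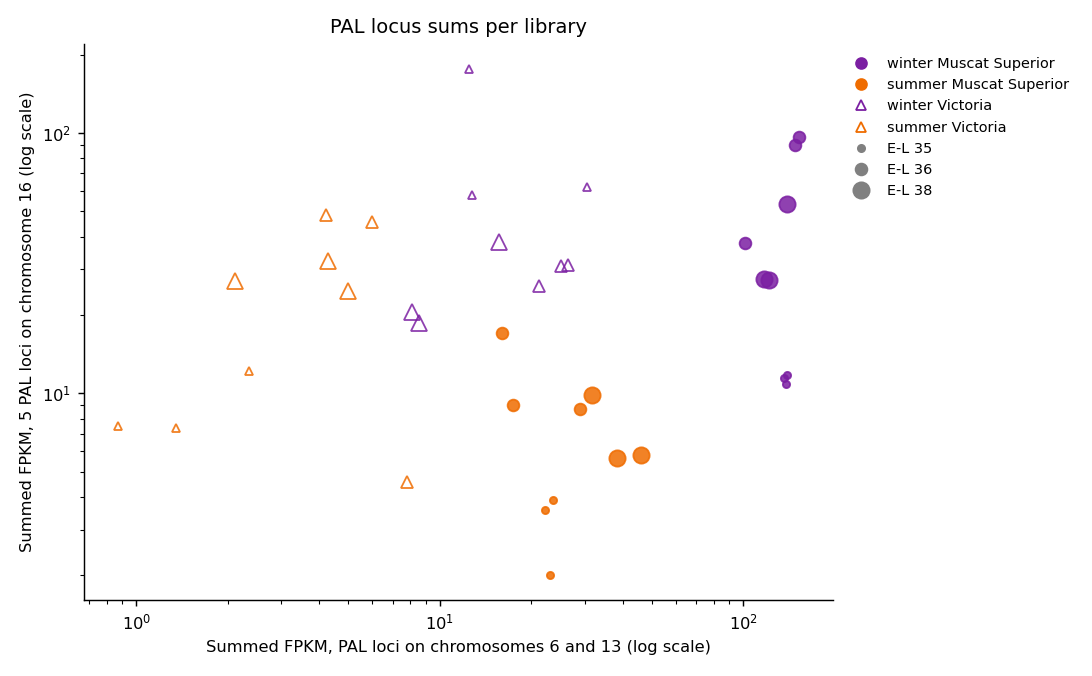
Summed FPKM of the PAL loci on chromosomes 6 and 13 (horizontal, log scale) against that of the 5 PAL loci on chromosome 16 (vertical, log scale) in each of the 36 libraries, coloured by crop, shaped by cultivar and sized by stage. The horizontal axis separates winter from summer within each cultivar, while 1 winter Victoria library at E-L 35 lies highest on the vertical axis and 1 summer Victoria library at E-L 36 lies lowest among the Victoria libraries.

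In the test of winter against summer (edgeR's quasi-likelihood F test, Benjamini-Hochberg adjustment over all 19736 genes, called below an adjusted p of 0.05), PAL and C4H loci were called 38 times higher and 3 times lower in winter in the 60 tests of 10 loci in 6 comparisons. In Victoria at E-L 35 all 10 loci were higher in winter, where 42.1% of all genes were called in either direction, and the median log2 fold change of the 10 was 3.56, against -0.01 over all genes tested. The 5 berry loci moved as well: in that comparison 4 were higher in winter and 1 lower (median 3.08 on the log2 scale), and VIT_208s0007g08330 had a mean of 56.2 FPKM in winter and 0.53 FPKM in summer. Over the 6 crop comparisons they were called 13 times higher and 6 times lower in 30 tests, 0 times in Muscat Superior at E-L 35, and their part in the result was not tested. At E-L 36 in Victoria only 2 of the 10 PAL and C4H loci were called, both higher, where 50.7% of all genes were called. At E-L 38, 2 were higher and 3 lower, where 54.3% of all genes were called. The median log2 fold change of the 10 was 0.10 at E-L 36 and -0.84 at E-L 38 in Victoria, against -0.02 and -0.03 over all genes tested. In Muscat Superior 6 loci were higher at E-L 35 (17.6% of all genes called), all 10 at E-L 36 (42.6% called) and 8 at E-L 38 (45.1% called), and none was lower in these 3 comparisons. Here the median log2 fold change of the 10 was 2.20 at E-L 35, or 2.09 with the 2 loci that have a group at 0 set at their bound, 2.74 at E-L 36 and 1.90 at E-L 38. Over all genes tested it was 0.00, -0.02 and 0.00 at these stages. The share of the 10 loci called in Victoria, 2 of 10 at E-L 36 and 5 of 10 at E-L 38, was thus not above that of all genes.

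The chromosome 13 PAL locus was higher in winter in 6 of 6 comparisons. Its log2 fold change was 2.12 (SE 0.27, adjusted p = 3.52e-06, edgeR), 2.56 and 1.67 in Muscat Superior at E-L 35, E-L 36 and E-L 38. In Victoria it was 2.89 (SE 0.33, adjusted p = 1.78e-07, edgeR), 1.97 and 1.71 at the same stages, with every winter library above every summer library. The chromosome 6 PAL locus was higher in 5 of 6 comparisons, by 3.01, 2.64 and 1.93 on the log2 scale in Muscat Superior. In Victoria its difference was largest at E-L 35 (4.67, SE 0.57, adjusted p = 4.45e-07, edgeR, or 25.4-fold), 2.12 at E-L 36, and 1.10 at E-L 38, which was not called (adjusted p = 0.0819, edgeR) although the libraries did not overlap. These calls held with any single library left out and with near-identical libraries counted once.

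The chromosome 8 PAL locus was higher in winter in 3 of 6 comparisons. It was called in Victoria at E-L 35, with 14.92, 22.42 and 41.17 FPKM in winter and 7.60, 2.28 and 2.51 FPKM in summer (log2 fold change 2.82, SE 0.52, adjusted p = 8.94e-05, edgeR). The other 2 calls were in Muscat Superior, at E-L 35 (2.28) and E-L 36 (2.45). Victoria at E-L 36 had 6.13, 7.07 and 6.20 FPKM in winter, against 4.40, 23.23 and 17.22 FPKM in summer. That difference was not called (-1.14, adjusted p = 0.0592, edgeR), but it was without summer replicate 1 (-1.57, adjusted p = 0.00857, edgeR). Nor was it called in Victoria at E-L 38 (-1.21, adjusted p = 0.056, edgeR), but was without winter replicate 1 or summer replicate 2 (adjusted p = 0.00939 and 0.0433, edgeR).

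Of the 5 chromosome 16 PAL loci, all 5 were higher in winter in Victoria at E-L 35 and in Muscat Superior at E-L 36 and E-L 38, and 2 were higher in Muscat Superior at E-L 35. In Victoria at E-L 36 none of the 5 was called. In Victoria at E-L 38 the 5 loci parted. VIT_216s0039g01360 was higher in winter, with 15.71, 9.66 and 8.64 FPKM against 1.95, 1.80 and 1.86 FPKM in summer (log2 fold change 2.56, SE 0.49, adjusted p = 8.23e-05, edgeR). VIT_216s0039g01240 was lower, with 1.48, 0.88 and 0.87 FPKM in winter against 3.97, 3.91 and 5.44 FPKM in summer (-2.08, adjusted p = 0.0252, edgeR). So was VIT_216s0039g01300, with 2.76, 0 and 0.05 FPKM in winter against 6.22, 5.67 and 5.22 FPKM in summer (-2.77, adjusted p = 0.0466, edgeR). The last 2 loci have no overlap between the crops, but the call of VIT_216s0039g01240 was lost without summer replicate 3 or winter replicate 2 or 3 (adjusted p up to 0.0742), and that of VIT_216s0039g01300 without any library but winter replicate 1 (up to 0.157). With near-identical libraries counted once neither was called (adjusted p = 0.0675 and 0.169). The 2 remaining loci at that stage, VIT_216s0039g01100 and VIT_216s0039g01170, were not called (-0.98 and 0.37).

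In Muscat Superior at E-L 35 the chromosome 16 loci VIT_216s0039g01300 and VIT_216s0039g01240 were close to the floor of the counts. VIT_216s0039g01300 had 0 FPKM in all 3 winter libraries and 0, 0.57 and 0.02 FPKM in summer, and VIT_216s0039g01240 had 0, 0 and 0.70 FPKM in winter and 0 in all 3 summer libraries. The 2 called there were VIT_216s0039g01100 (2.52, adjusted p = 0.00803, edgeR), lost without summer replicate 3 (2.13, adjusted p = 0.0544), and VIT_216s0039g01170 (1.89, adjusted p = 0.0498), lost when any 1 of the 6 libraries was left out (adjusted p from 0.0549 to 0.15). With near-identical libraries counted once, which leaves 1 winter library, neither was called (adjusted p = 0.134 and 0.289), nor was the chromosome 8 locus (0.105). At E-L 36 the largest winter difference among the 5 was that of VIT_216s0039g01240, with 14.18, 10.38 and 3.92 FPKM in winter against 0.43, 0.47 and 0.99 FPKM in summer (3.81, SE 0.80, adjusted p = 0.000447, edgeR). VIT_216s0039g01300 was called there at 3.03 (adjusted p = 0.0266, edgeR) and lost without summer replicate 2 or 3 or winter replicate 1 (adjusted p = 0.0998, 0.102 and 0.081). Counting near-identical libraries once ended that call (0.0759) and that of VIT_216s0039g01100 at this stage (0.0524). At E-L 38 VIT_216s0039g01300 had 2.99, 6.90 and 2.48 FPKM in winter, against 0, 0 and 0.33 FPKM in summer (5.13, SE 1.55, adjusted p = 0.00905, edgeR), and VIT_216s0039g01100 was higher by 1.88 (adjusted p = 0.00876), lost without summer replicate 3 (adjusted p = 0.0522).

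The major C4H locus, on chromosome 6, was higher in winter in 4 of 6 comparisons and lower in 1. In Muscat Superior at E-L 35 it had 70.85, 71.77 and 66.45 FPKM in winter, against 12.40, 12.42 and 11.17 FPKM in summer (log2 fold change 2.49, SE 0.26, adjusted p = 2.55e-07, edgeR). At E-L 36 it had 78.46, 76.27 and 47.00 FPKM in winter and 13.12, 15.89 and 12.20 FPKM in summer (2.19), and at E-L 38 62.65, 86.16 and 77.94 FPKM in winter and 29.97, 30.46 and 28.14 FPKM in summer (1.42). Its winter level in Muscat Superior was thus high at all 3 stages, with no overlap with summer. In Victoria the winter level was high only at the first stage. It was 51.44, 31.99 and 69.82 FPKM in winter against 7.73, 4.24 and 5.74 FPKM in summer at E-L 35 (3.28, SE 0.27, adjusted p = 9.3e-10, edgeR), and 16.37, 18.34 and 15.59 FPKM against 9.97, 19.07 and 14.49 FPKM at E-L 36 (0.26, adjusted p = 0.402, edgeR). At E-L 38 it was 11.10, 5.21 and 4.79 FPKM in winter and 9.85, 9.96 and 13.05 FPKM in summer. That fall of 0.69 on the log2 scale (adjusted p = 0.029, edgeR) was between overlapping groups, and was lost without summer replicate 3 (adjusted p = 0.13) or winter replicate 2 or 3 (adjusted p = 0.129 and 0.154), or with near-identical libraries counted once (0.178).

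The minor C4H locus, on chromosome 11, was higher in winter in 2 comparisons. In Victoria at E-L 35 it had 0.89, 0.72 and 6.74 FPKM in winter, against 0.02, 0.06 and 0.09 FPKM in summer (5.74, SE 1.01, adjusted p = 5.28e-05, edgeR), so that 1 library carried most of its level. In Muscat Superior at E-L 36 it had 2.88, 3.30 and 0.99 FPKM in winter, against 0.72, 0.09 and 0.03 FPKM in summer (2.97, adjusted p = 0.00672, edgeR). It was at most 1.46 FPKM in every library of the other groups, and its neighbours in the order of group means overlapped in 11 of 11 cases.

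**Figure D4:**
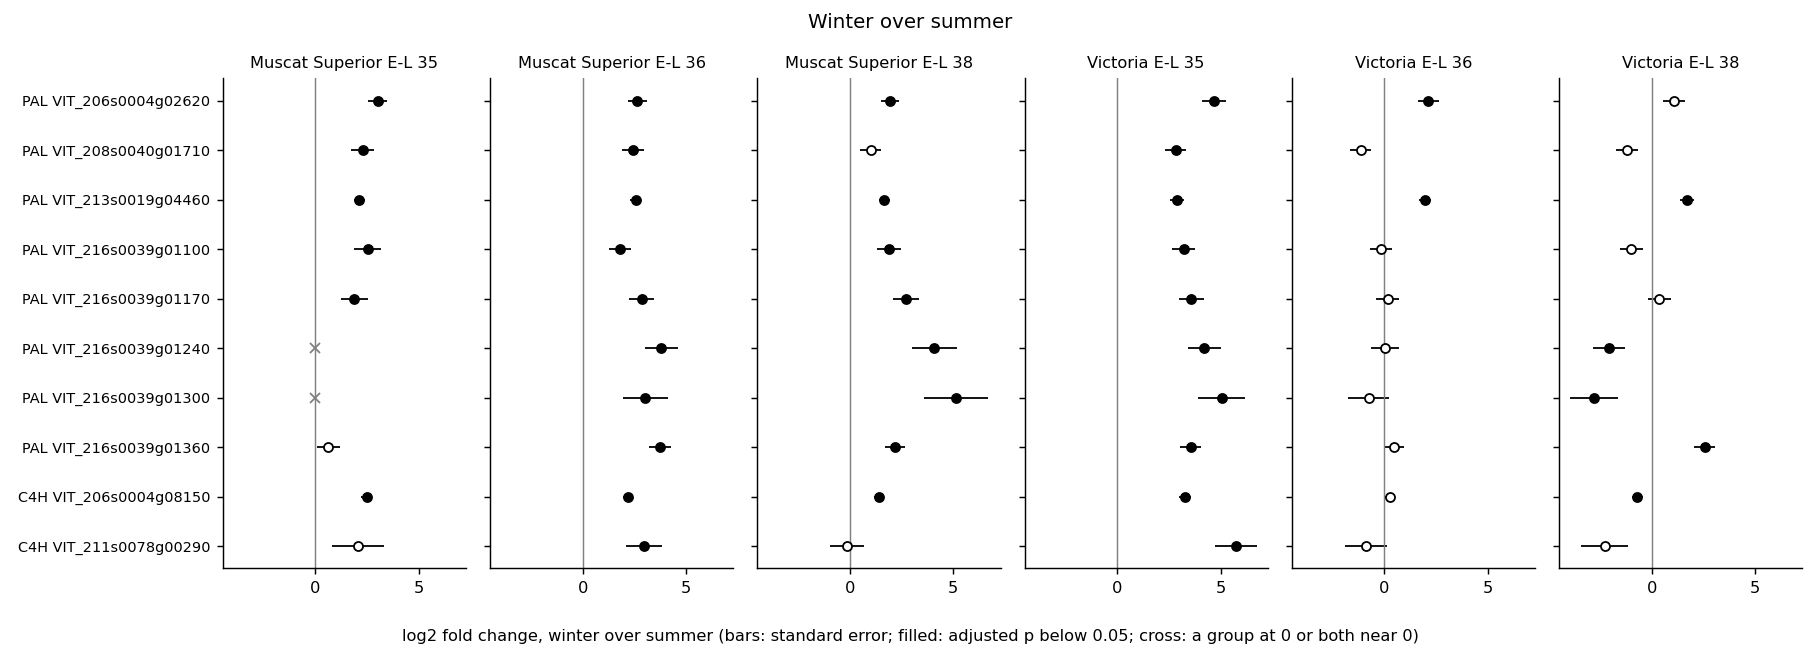
Log2 fold change of winter over summer for the 10 loci (rows) in Muscat Superior and Victoria at E-L 35, E-L 36 and E-L 38 (panels), with bars for the standard error; filled points have an adjusted p below 0.05 and a cross marks a fold change in which a group is at 0 or both are near 0. Filled points lie right of 0 in all 3 Muscat Superior panels and in Victoria at E-L 35, and on both sides in Victoria at E-L 38.

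Between cultivars, in Muscat Superior against Victoria, the loci were called 21 times higher and 15 times lower in the 60 tests of 10 loci in 6 comparisons. The chromosome 6 and 13 PAL loci were higher in Muscat Superior in 6 of 6 comparisons each, and the lower calls fell to 13 tests of the 5 chromosome 16 loci, 1 of the chromosome 8 locus and 1 of the chromosome 11 C4H locus. In the winter crop 2 loci were higher and 6 lower at E-L 35 (30.1% of all genes called), 7 higher and 0 lower at E-L 36 (35.0% called), and 4 higher and 0 lower at E-L 38 (27.9% called). In the summer crop 3 were higher and 2 lower at E-L 35 (44.6% called), 2 higher and 3 lower at E-L 36 (38.0% called), and 3 higher and 4 lower at E-L 38 (41.3% called). The share of the 10 loci called in the summer crop, 5 of 10 at E-L 35 and at E-L 36, was thus little above that of all genes.

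The chromosome 13 PAL locus was higher in Muscat Superior by 3.35 (SE 0.29, adjusted p = 1.42e-09, edgeR), 2.58 and 3.76 on the log2 scale in the winter crop at E-L 35, E-L 36 and E-L 38. In the summer crop it was higher by 4.12 (SE 0.33, adjusted p = 1.21e-10, edgeR), 1.99 and 3.81, with no overlap between the cultivars in any of the 6 comparisons. The chromosome 6 PAL locus was higher by 2.68, 2.37 and 3.49 in the winter crop and by 4.34, 1.86 and 2.66 in the summer crop. Its call in the summer crop at E-L 36, where the cultivars overlapped, was lost without summer Muscat Superior replicate 2 (1.22, adjusted p = 0.0687, edgeR), and that in the winter crop at E-L 36 with near-identical libraries counted once (adjusted p = 0.0624). The chromosome 6 C4H locus was higher in Muscat Superior in 4 of 6 comparisons, most at E-L 38 of the winter crop (3.54, SE 0.28, adjusted p = 1.39e-10, edgeR, or 11.6-fold). It was not called in the winter crop at E-L 35 (0.52, adjusted p = 0.116), but was without winter Victoria replicate 3 (0.82, adjusted p = 0.0211), nor in the summer crop at E-L 36 (0.10).

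All 5 chromosome 16 PAL loci were lower in Muscat Superior in the winter crop at E-L 35. VIT_216s0039g01300 had 0 FPKM in all 3 Muscat Superior libraries, against 9.26, 6.51 and 41.29 FPKM in Victoria, which is at least 139.6-fold lower when the Muscat Superior libraries are set at 3 counts each, and at least 56.7-fold lower without winter Victoria replicate 3. VIT_216s0039g01240 had 0, 0 and 0.70 FPKM in Muscat Superior and 6.91, 2.69 and 16.90 FPKM in Victoria (-5.12, SE 0.93, adjusted p = 0.000147, edgeR). VIT_216s0039g01360 had 1.54, 1.96 and 1.71 FPKM in Muscat Superior and 6.39, 7.04 and 14.58 FPKM in Victoria (-2.36), and VIT_216s0039g01100 was lower by 2.82 on the log2 scale. The libraries of the cultivars did not overlap at these loci. VIT_216s0039g01170 (-2.24) and the chromosome 11 C4H locus (-3.15) were also lower, but both calls rested on winter Victoria replicate 3 and were lost without it (-1.34, adjusted p = 0.0885, and -1.38, adjusted p = 0.279, edgeR). The 3 Muscat Superior libraries here are near-identical. Counted once, they left VIT_216s0039g01240 and VIT_216s0039g01300 called lower, while VIT_216s0039g01100, VIT_216s0039g01360, VIT_216s0039g01170 and the chromosome 11 C4H locus were not (adjusted p = 0.0677, 0.0673, 0.132 and 0.153), and the 15 lower calls between cultivars became 8.

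At E-L 36 of the winter crop none of the 5 was lower, and VIT_216s0039g01170 (1.90) and VIT_216s0039g01360 (1.66) were higher in Muscat Superior, as was the chromosome 8 PAL locus (1.65). These 3 calls were lost with near-identical libraries counted once, as were 5 of the 7 calls of that comparison. At E-L 38 of the winter crop none of the 5 was called, and the chromosome 8 locus was higher by 1.65 (adjusted p = 0.0197, edgeR), lost without winter Victoria replicate 2 or 3 or winter Muscat Superior replicate 2 (adjusted p = 0.104, 0.101 and 0.132). In the summer crop at E-L 38, 4 of the 5 were lower in Muscat Superior. There VIT_216s0039g01240 had 0, 0.41 and 0 FPKM in Muscat Superior, against 3.97, 3.91 and 5.44 FPKM in Victoria (-5.00, SE 1.03, adjusted p = 0.000369, edgeR). VIT_216s0039g01300 had 0, 0 and 0.33 FPKM in Muscat Superior, against 6.22, 5.67 and 5.22 FPKM in Victoria (-5.53, SE 1.53, adjusted p = 0.00516, edgeR), again without overlap. VIT_216s0039g01100 (-1.62) and VIT_216s0039g01170 (-1.68) were lower too. The first call was lost without summer Victoria replicate 1 or summer Muscat Superior replicate 2 or 3 (adjusted p up to 0.112), and the second without any library but summer Victoria replicate 3 (up to 0.0976). At E-L 35 of the summer crop VIT_216s0039g01100 (-2.13) and VIT_216s0039g01240 (at least 4.65-fold lower) were called. The first was lost without summer Muscat Superior replicate 3 (adjusted p = 0.0567), and the second without summer Victoria replicate 2 or any Muscat Superior library (up to 0.0628). At E-L 36 of the summer crop the chromosome 8 locus was lower by 1.94 on the log2 scale, a call that held with any single library left out. VIT_216s0039g01240 (-2.62) was lost there without summer Victoria replicate 3 or summer Muscat Superior replicate 2 (adjusted p = 0.0607 and 0.0516), and VIT_216s0039g01360 (-1.63) without replicate 2 or 3 of either cultivar (up to 0.122). Without summer Victoria replicate 1, VIT_216s0039g01100 (-1.58, adjusted p = 0.00306) and VIT_216s0039g01300 (-2.69, adjusted p = 0.0377) were called lower there as well.

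**Figure D5:**
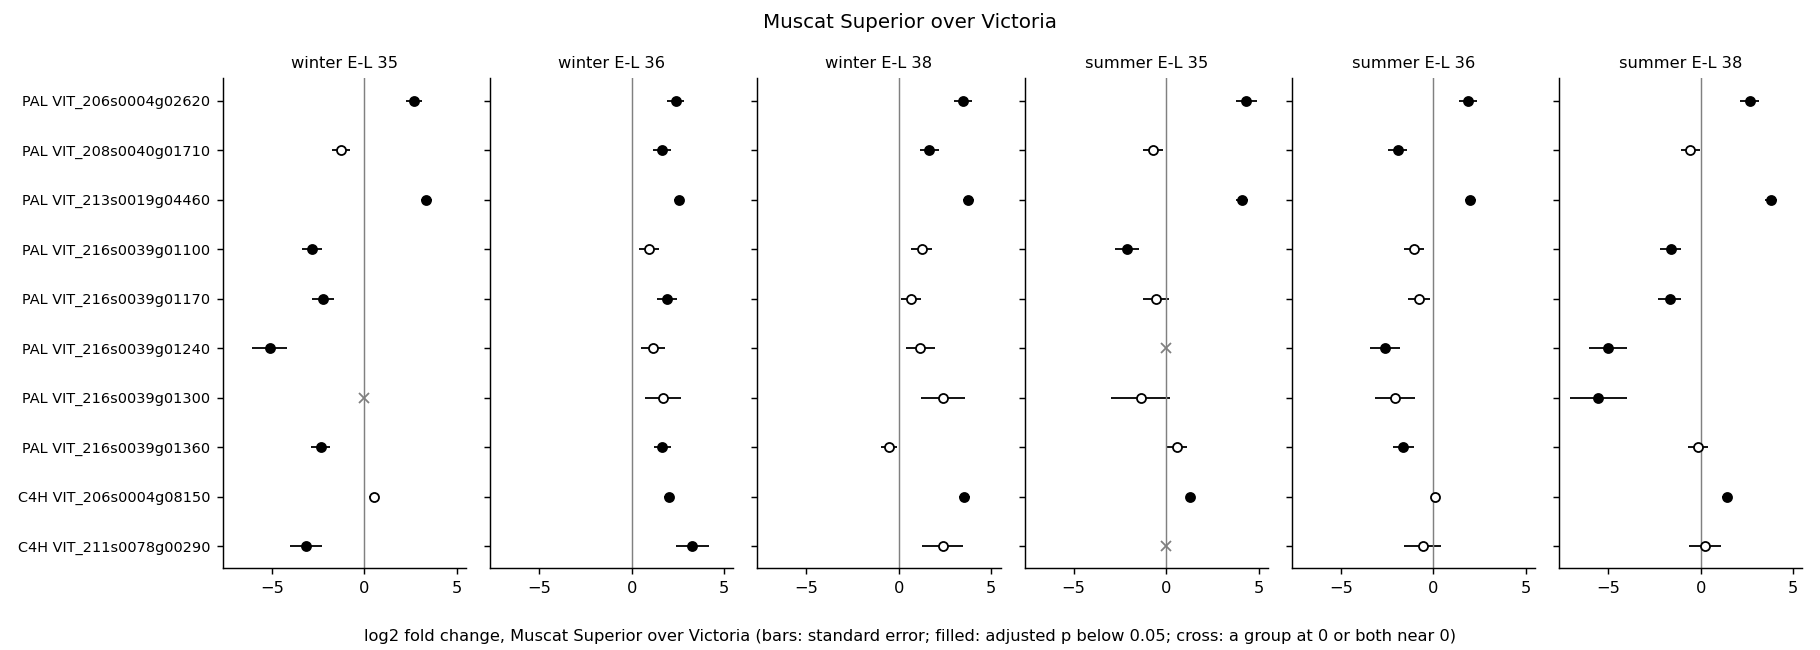
Log2 fold change of Muscat Superior over Victoria for the 10 loci (rows) in the winter and summer crops at E-L 35, E-L 36 and E-L 38 (panels), with bars for the standard error; filled points have an adjusted p below 0.05 and a cross marks a fold change in which a group is at 0 or both are near 0. The PAL loci on chromosomes 6 and 13 lie right of 0 in all 6 panels. In the winter crop at E-L 35 the chromosome 16 loci lie left of 0, except VIT_216s0039g01300, which is a cross. In the summer crop at E-L 38, 4 of the 5 chromosome 16 loci have filled points left of 0.

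Whether the winter effect differed between the cultivars was tested as the winter-over-summer log2 fold change in Muscat Superior minus that in Victoria. At E-L 35, 1 of the 10 loci was called (18.1% of all genes), VIT_216s0039g01360, whose winter effect was smaller in Muscat Superior (-2.93, adjusted p = 0.00761, edgeR). At E-L 36, 6 loci had a larger winter effect in Muscat Superior (18.7% of all genes called), and at E-L 38, 5 had (16.8% called). The chromosome 6 C4H locus was in both sets, by 1.93 (SE 0.36, adjusted p = 0.000387, edgeR) and 2.11 (SE 0.36, adjusted p = 0.000207, edgeR). So was VIT_216s0039g01240, by 3.76 and 6.16, and the chromosome 8 PAL locus, by 3.59 and 2.21. The call of the chromosome 8 locus at E-L 38 was lost under 7 of the 12 single libraries left out (adjusted p up to 0.127), that of VIT_216s0039g01170 at E-L 36 (2.69) under 4 (up to 0.0841) and that of the chromosome 11 C4H locus at E-L 36 (3.86) under 8 (up to 0.203). The chromosome 6 and 13 PAL loci were not called at any stage, with differences of -1.66, 0.51 and 0.83 (SE 0.72, 0.66 and 0.69) and of -0.77, 0.59 and -0.04 (SE 0.42, 0.39 and 0.40) at E-L 35, E-L 36 and E-L 38. With near-identical libraries counted once, 4 of the 12 calls were left: the chromosome 6 C4H locus at E-L 36 and E-L 38, and VIT_216s0039g01240 and VIT_216s0039g01300 at E-L 38. Without summer Victoria replicate 1 at E-L 36, VIT_216s0039g01100 (2.52, adjusted p = 0.0012, edgeR) and VIT_216s0039g01300 (4.40, adjusted p = 0.0162) were called there as well.

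Ripening moved most of the loci in opposite directions in the 2 crops of Victoria from E-L 35 to E-L 38. The chromosome 13 PAL locus and VIT_216s0039g01360 did not fall in the winter crop over that span. From E-L 35 to E-L 36 all 10 loci rose in the summer crop (43.0% of all genes called). None was called by edgeR, DESeq2 or limma from E-L 36 to E-L 38, where edgeR called 0.233% of all genes. At that step 1 locus, the chromosome 13 PAL locus, was below 0.05 in edgeR before adjustment. In the winter crop 7 loci fell and 1 rose from E-L 35 to E-L 36 (43.2% called), and 2 fell and 1 rose from E-L 36 to E-L 38 (17.9% called). The 3 winter libraries at E-L 36 are near-identical, and counted once they left 2 of the 8 calls at the first step, the fall of the major C4H locus and the rise of the chromosome 13 PAL locus, and 0 of the 3 at the second. At E-L 38 against E-L 35, 9 loci were higher in summer Victoria (42.9% called), all but VIT_216s0039g01100 (1.30, adjusted p = 0.0536, edgeR), and 7 were lower in winter Victoria (51.6% called). The 3 that were not lower in winter Victoria were the chromosome 13 PAL locus (0.05), VIT_216s0039g01360 (0.35) and VIT_216s0039g01170 (-1.27, adjusted p = 0.0532, edgeR).

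The major C4H locus shows both courses. In winter Victoria its mean level was 51.1 ± 18.9 FPKM at E-L 35, 16.8 ± 1.42 FPKM at E-L 36 and 7.03 ± 3.53 FPKM at E-L 38 (SD, n = 3). It fell by 1.48 at the first step and by 1.32 at the second on the log2 scale (adjusted p = 3.35e-05 and 0.000894, edgeR). With near-identical libraries counted once the second fall was not called (adjusted p = 0.152). In summer Victoria it was 5.90 ± 1.75, 14.5 ± 4.55 and 10.95 ± 1.82 FPKM at the same stages. There it rose by 1.54 at the first step (adjusted p = 3.12e-05, edgeR). The chromosome 6 PAL locus fell by 1.44 in winter Victoria over the whole course (adjusted p = 0.0136), a call lost without replicate 1 at E-L 35 (adjusted p = 0.318). Its rise at the first step of the summer crop was lost without replicate 1 at E-L 36 (1.47, adjusted p = 0.1003, edgeR).

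The change at the first step of winter Victoria leaned on 1 library at most of the loci. Without winter replicate 3 at E-L 35 the calls of the chromosome 11 C4H locus (-1.63, adjusted p = 0.161) and of the 4 chromosome 16 loci called there (adjusted p from 0.119 to 0.367, edgeR) were lost, and 5 of the 10 lower calls of all 8 ripening steps were left. These 4 chromosome 16 calls were lost without winter replicate 3 at E-L 36 too, with an adjusted p up to 0.106. Without winter replicate 3 at E-L 35 the first-step fall of the major C4H locus was still called. So were the first-step fall of the chromosome 8 PAL locus (-1.88, adjusted p = 0.00349, edgeR) and rise of the chromosome 13 PAL locus (1.22, adjusted p = 0.00107). The fall of the chromosome 8 locus was lost with near-identical libraries counted once. At the second step the chromosome 13 PAL locus was called lower. The second-step rise of VIT_216s0039g01360 (1.52) was lost without any winter library at E-L 36 or replicate 1 at E-L 38 (adjusted p up to 0.0906). In summer Victoria the first-step calls of the chromosome 11 C4H locus, VIT_216s0039g01100, VIT_216s0039g01170 and VIT_216s0039g01300 were also lost without single libraries (adjusted p up to 0.192, 0.0733, 0.133 and 0.106). Replicate 2 or 3 at E-L 36 was among the libraries whose absence ended each of these 4 calls. Over the whole course of summer Victoria 6 of the 9 calls were lost under at least 1 left-out library, and those of VIT_216s0039g01240, the chromosome 6 PAL locus and the major C4H locus were not.

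In Muscat Superior no locus was called lower at E-L 38 than at E-L 35 in either crop. The chromosome 6 PAL locus of the winter crop did not overlap between these stages but was not called. It had 72.61 to 78.38 FPKM at E-L 35 and 40.09 to 53.62 FPKM at E-L 38. In the winter crop 6 loci rose from E-L 35 to E-L 36 (36.6% of all genes called), namely the 5 chromosome 16 PAL loci and the chromosome 11 C4H locus, and 1 fell from E-L 36 to E-L 38 (25.4% called), which left 4 higher over the whole course (46.2% called). The fall, of VIT_216s0039g01240 (-2.03), was lost without replicate 1 or 2 at E-L 36 or replicate 1 or 3 at E-L 38 (adjusted p up to 0.134). Of the 4, VIT_216s0039g01170 (1.64) was lost without replicate 3 at E-L 35 or replicate 2 at E-L 38 (0.0871 and 0.141). Counting near-identical libraries once left 3 of the 6 rises at the first step, those of VIT_216s0039g01240, VIT_216s0039g01300 and VIT_216s0039g01360, and of the 4 over the whole course 1, that of VIT_216s0039g01300. VIT_216s0039g01300 had 0 FPKM in the 3 winter libraries at E-L 35 and 14.77, 8.19 and 6.41 FPKM at E-L 36, at least 79.1-fold higher when the libraries at E-L 35 are set at 3 counts each. In the summer crop 2 loci rose at the first step (23.0% called), 1 at the second (2.59% called), and 5 over the whole course (34.1% called). At the first step VIT_216s0039g01240 was lost without any library at E-L 35 or replicate 3 at E-L 36 (adjusted p up to 0.071), and the second-step rise of the major C4H locus (0.97) was lost under 5 of 6 single libraries left out (up to 0.142). The major C4H locus was among the 5, with 11.997 ± 0.716 FPKM at E-L 35, 13.7 ± 1.92 FPKM at E-L 36 and 29.5 ± 1.22 FPKM at E-L 38 (SD, n = 3), a difference of 1.29 over the whole course (adjusted p = 0.000271, edgeR). The chromosome 13 PAL locus was higher by 0.91 (adjusted p = 0.0088, edgeR). These 2 calls held with any single library left out, while those of the chromosome 8 PAL locus (1.46), the chromosome 11 C4H locus (3.30) and VIT_216s0039g01100 (1.82) were lost under 5, 3 and 5 of the 6 single libraries left out. The adjusted p was highest without replicate 1 at E-L 38 for each of them (0.14, 0.213 and 0.209). In winter Muscat Superior the chromosome 6 and 13 PAL loci and the major C4H locus were not called at any step (from -0.63 to 0.46 on the log2 scale over the whole course).

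The difference between the crops in this change, winter minus summer of the E-L 38 over E-L 35 log2 fold change, was called in Victoria for 9 of 10 loci, all negative (42.8% of all genes called). The exception was VIT_216s0039g01360 (-0.99, adjusted p = 0.267, edgeR), which was called without summer replicate 1 at E-L 35 (-1.90, adjusted p = 0.042). Among the loci with whole counts it was -3.97 for the major C4H locus (SE 0.38, adjusted p = 5.25e-09, edgeR), -3.57 for the chromosome 6 PAL locus (SE 0.79, adjusted p = 0.000646) and -1.18 for the chromosome 13 PAL locus (SE 0.47, adjusted p = 0.0431). The last was lost when any of 7 single libraries was left out (adjusted p up to 0.156) or near-identical libraries were counted once (0.132). In Muscat Superior 1 of 10 loci was called (27.1% of all genes called), the major C4H locus (-1.07, SE 0.35, adjusted p = 0.0236, edgeR). That call was lost without summer replicate 3 at E-L 35 (adjusted p = 0.0536), summer replicate 2 at E-L 38 (0.0516) or winter replicate 1 at E-L 38 (0.0639), and with near-identical libraries counted once (0.125).

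The summed level of PAL in FPKM was 1.71 to 5.75 times that of C4H in the group means of the ratio. In winter Muscat Superior the ratio was 2.28 ± 0.102, 3.27 ± 0.119 and 2.28 ± 0.299 at E-L 35, E-L 36 and E-L 38, and in summer Muscat Superior 2.34 ± 0.0623, 2.54 ± 0.139 and 1.71 ± 0.125 (SD, n = 3). In Victoria it was 2.63 ± 0.510, 3.53 ± 0.171 and 5.75 ± 0.362 in the winter crop, and 2.42 ± 0.467, 3.38 ± 1.60 and 3.56 ± 0.758 in the summer crop. The winter Victoria group at E-L 38 was the highest of the 12, with every library of it above every library of the other groups.

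Next in the pathway, lists of loci recalled for 4CL, CHS, STS and the monolignol branch were followed in the same test. Their enzyme names were recalled and checked against no annotation. Over the 6 crop comparisons 42.1% of all tests of all genes were called, and over the 6 cultivar comparisons 36.2%. In winter against summer, summed over the 6 comparisons, the 2 loci listed as CHS were called 11 times higher and 0 times lower in 12 tests, and the 39 tested loci listed as STS 94 times higher and 9 times lower in 234. The share called was thus 91.7% for the CHS list and 44.0% for the STS list, the second close to that of all genes. The 6 listed as 4CL were called 12 times higher and 9 times lower in 36, and the 5 of the monolignol list 13 times higher and 6 times lower in 30, or 58.3% and 63.3%. In Muscat Superior against Victoria the CHS list was called 10 times higher and 0 times lower, the STS list 8 times higher and 92 times lower, the 4CL list 7 times higher and 12 times lower, and the monolignol list 19 times higher and 2 times lower (83.3%, 42.7%, 52.8% and 70.0% called). The CHS list had in common with the chromosome 6 and 13 PAL loci that its members were called higher and not lower in both families of comparisons. The STS list was called lower in Muscat Superior mostly in the winter crop at E-L 35 (37 of 39 loci) and in the summer crop at E-L 36 (19) and E-L 38 (27), where 5, 2 and 4 of the 5 chromosome 16 PAL loci were lower.

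Among the named loci of these lists, VIT_214s0068g00920 (CHS list) was higher in winter at E-L 35 by 2.24 in Muscat Superior and by 4.79 in Victoria on the log2 scale, and VIT_205s0136g00260 (CHS list) by 1.62 in Muscat Superior and by 3.27 in Victoria. In the 4CL list the loci did not move together: VIT_211s0052g01090 was higher in winter by 1.71 in Muscat Superior and by 2.80 in Victoria at E-L 35, and lower by 1.00 in Victoria at E-L 36. VIT_216s0039g02040 was higher by 2.54 in Muscat Superior and by 2.00 in Victoria at E-L 35, while VIT_202s0025g03660, VIT_202s0109g00250 and VIT_216s0050g00390 were not called at that stage and VIT_206s0061g00450 was lower in Victoria by 0.29. In the monolignol list VIT_207s0031g00350 was higher in winter in Victoria by 1.75 at E-L 35 and VIT_216s0098g00850 was not called (0.72). Of 24 further loci recalled or placed by identifier among the PAL loci, 23 were in the files and 15 were tested. Over the 6 crop comparisons these 15 were called 23 times higher and 7 times lower in 90 tests, or 33.3%, which is below the share of all genes.

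Within groups, winter Victoria replicate 3 at E-L 35 and summer Victoria replicate 1 at E-L 36 stood apart at the chromosome 16 PAL loci and the STS list together. They also differed over the genes at large. The chi-square per degree of freedom was 23.4 and 16.8 for the first, against 8.42 between its partners. For the second it was 57.7 and 55.3, against 3.50. Whether the PAL and STS loci moved more than other genes was not tested. In winter Victoria at E-L 35 the chromosome 16 PAL sum was 61.9, 57.8 and 175.95 FPKM and the STS sum 784, 608 and 2668 CPM in replicates 1, 2 and 3. In the same libraries the chromosome 6 PAL locus had 22.33, 6.85 and 7.20 FPKM and the CHS sum 493, 301 and 286 CPM, so that these were highest in replicate 1 and not in replicate 3. The chromosome 13 PAL locus was also highest in replicate 1 (8.11 FPKM). The C4H sum, 52.3, 32.7 and 76.6 FPKM, was highest in replicate 3. In summer Victoria at E-L 36 the chromosome 16 PAL sum was 4.58, 45.5 and 48.6 FPKM and the STS sum 40.3, 493 and 502 CPM. There the chromosome 6 PAL locus had 4.50, 1.34 and 1.23 FPKM and the CHS sum 89.0, 43.3 and 24.3 CPM. These were again highest in replicate 1, where the chromosome 16 PAL and STS sums were lowest. The chromosome 13 PAL locus was highest in replicate 2 instead (4.66 FPKM). The C4H sum, 10.3, 20.1 and 14.6 FPKM, was lowest in replicate 1. In winter Muscat Superior at E-L 36 the chromosome 16 PAL sum was 96.5, 89.95 and 37.9 FPKM and the STS sum 759, 709 and 329 CPM. There the chromosome 6 and 13 PAL sum, 152.95, 147.57 and 101.52 FPKM, the C4H sum, 81.3, 79.6 and 47.99 FPKM, and the CHS sum, 1190.4, 1166 and 896 CPM, were lowest in replicate 3 too. Over all 36 libraries, which share these groups and are no independent points, the log2 CPM of the chromosome 6 and 13 PAL loci correlated with that of the CHS sum at Pearson's r = 0.97 and 0.95, and with that of the STS sum at 0.17 and 0.12. The 5 chromosome 16 loci had 0.74 to 0.92 with the STS sum and -0.13 to 0.40 with the CHS sum, and the major C4H locus 0.45 with the STS sum and 0.82 with the CHS sum. As at the chromosome 16 loci, the STS value was the higher at the chromosome 8 PAL locus (0.83, against 0.29). So it was at the chromosome 11 C4H locus (0.72, against 0.38).

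The 2 genes outside the 10 whose log2 CPM was most like that of the chromosome 13 PAL locus were VIT_213s0156g00180 (r = 0.93 over 36 libraries, 0.94 over the 12 group means) and VIT_205s0077g00950 (0.92 and 0.93). For the major C4H locus they were VIT_200s0391g00070 (0.91 and 0.92) and VIT_202s0012g01570 (0.89 and 0.91). Likeness was searched over all tested genes, so high values are what the search selects. Among the 10 loci themselves the chromosome 6 and 13 PAL loci were the most alike over the 36 libraries (r = 0.94), and each had -0.13 to 0.38 with the chromosome 16 loci. For deviations from the group means the pair had only 0.41, against 0.78 for the chromosome 8 PAL locus with VIT_216s0039g01360. With the chromosome 16 loci these deviations gave -0.54 to 0.03 for the chromosome 6 locus and 0.11 to 0.32 for the chromosome 13 locus.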

How the data were processed

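Per the file headers, each library's deposited file gives an expected count per gene (an estimated count, not always whole), a transcript length in bases and an FPKM value, all made by the authors. Genes without reads in a library are not listed there and were set to 0. Bowtie is named in the submitters' processing notes; which program counted, and on which genome build and annotation, is not given in the sources used here. Libraries were grouped by the labels' crop, cultivar and stage.

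The deposited expected counts were rounded and tested with edgeR 4.0.16 (R 4.3.3): filterByExpr, TMM, a means model of 12 groups over 36 libraries (24 residual degrees of freedom), robust quasi-likelihood F tests in 29 comparisons and Benjamini-Hochberg adjustment over 19736 genes, with calls below 0.05. The test was tested on simulated data. Levels are the authors' deposited FPKM values; CPM values use TMM library sizes. A bound against a group at 0 sets each library at 3 counts; such floors cover counting error only. Alternatives were DESeq2 1.42.0, limma 3.58.1 on log2(FPKM + 1) and log2(FPKM + 0.1), RLE factors, no filter, a replicate block, near-identical libraries (chi-square below 2 per degree of freedom) summed, the compared libraries alone, summer Victoria replicate 1 at E-L 36 and E-L 38 left out, and single libraries left out.

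Members, lists and alternatives were chosen with earlier results of these data known. Named loci are all 10 members, every 4CL locus, the 2 loci of highest mean CPM in each other pathway list, and, for the PAL and the C4H locus of highest mean CPM, the 2 tested genes with the highest Pearson correlation of log2 CPM over the 36 libraries.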

Additional observations from a re-analysis of the deposited data

Results flagged for a closer look

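The size of the winter effect differed between the cultivars, by a test of the difference itself (edgeR) at 1, 6 and 5 of the 10 loci at E-L 35, E-L 36 and E-L 38, where 18.1%, 18.7% and 16.8% of all genes were called. Of these 12 calls 9 held with any single library left out and 4 under every alternative. The value is the winter-over-summer log2 fold change of Muscat Superior minus that of Victoria. At E-L 35 it was -2.93 for VIT_216s0039g01360. At E-L 36 it was 1.93 for the chromosome 6 C4H locus, 3.59 for the chromosome 8 PAL locus, 3.86 for the chromosome 11 C4H locus, 2.69 for VIT_216s0039g01170, 3.76 for VIT_216s0039g01240 and 3.28 for VIT_216s0039g01360. At E-L 38 it was 2.11 for the chromosome 6 C4H locus, 2.21 for the chromosome 8 PAL locus, 2.86 for VIT_216s0039g01100, 6.16 for VIT_216s0039g01240 and 7.90 for VIT_216s0039g01300. These last values for VIT_216s0039g01240 and VIT_216s0039g01300 involve summer Muscat Superior means of only 0.137 and 0.11 FPKM, so their size is uncertain.

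The change from E-L 35 to E-L 38 differed between the crops by the same kind of test, given as winter minus summer. It was called at 1 of 10 loci in Muscat Superior and 9 of 10 in Victoria, where 27.1% and 42.8% of all genes were called, and 8 of the 10 calls held under every alternative. In Muscat Superior it was -1.07 for the chromosome 6 C4H locus. In Victoria it was -3.57 for the chromosome 6, -4.03 for the chromosome 8 and -1.18 for the chromosome 13 PAL locus. For the chromosome 16 loci called there it was -4.19 (VIT_216s0039g01100), -3.21 (VIT_216s0039g01170), -6.30 (VIT_216s0039g01240) and -7.82 (VIT_216s0039g01300), and for the C4H loci -3.97 (chromosome 6) and -8.00 (chromosome 11). The chromosome 11 value involves means of 0.057 FPKM in summer Victoria at E-L 35 and 0.13 FPKM in winter Victoria at E-L 38. That of VIT_216s0039g01300 involves 0.633 and 0.937 FPKM in the same groups, so both sizes are uncertain.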

How the results depend on the processing

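Counting near-identical winter libraries once changed the counts most. The 3 lower calls in Victoria at E-L 38, which are also the 3 lower calls over all 6 crop comparisons, became 0; the 6 higher calls in Muscat Superior at E-L 35 became 3, the 10 lower calls of the ripening steps 1, the 18 higher calls at E-L 38 against E-L 35 11, the 15 lower calls between cultivars 8, and the 11 positive and 1 negative differences of the winter effect between cultivars 4 and 0. With limma on log2(FPKM + 1) the 18 became 11 and the 1 negative difference 3; with DESeq2, with limma on log2(FPKM + 0.1) and without summer Victoria replicate 1 at E-L 36 and E-L 38 it became 2. DESeq2 and the fit without those 2 libraries each gave 1 lower call in Victoria at E-L 36, against 0. For the ripening change between crops, against 0, DESeq2, limma on log2(FPKM + 0.1) and the fit without those libraries gave 1 positive difference each, and the compared libraries alone 2. With single libraries left out, lower calls in Victoria ran from 0 to 1 at E-L 36 and from 0 to 4 at E-L 38, as over all crop comparisons. Higher calls ran from 4 to 5 in Muscat Superior at E-L 35 and from 14 to 18 at E-L 38 against E-L 35, and lower calls from 5 to 11 in the ripening steps and from 13 to 17 between cultivars. Differences of the winter effect ran from 9 to 13 positive and from 1 to 2 negative, and positive ripening differences from 0 to 0. The difference of VIT_216s0039g01240 in winter effect at E-L 35, 1.41 and not called, was -2.15 with limma on log2(FPKM + 1). At that stage the locus had means of 0.233 FPKM in winter and 0 in summer Muscat Superior. In Victoria it had 8.83 FPKM in winter and 0.527 FPKM in summer. The cause of the change in sign was not tested. On the FPKM scales the median of all genes moved by -0.27 to 0.21. Of the calls, 32 of 41 for crop, 9 of 31 for ripening steps, 12 of 25 for E-L 38 against E-L 35, 18 of 36 between cultivars, 4 of 12 for the winter effect between cultivars and 8 of 10 for the ripening change between crops were made under every alternative.

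Replicate numbers did not pair the libraries: same-numbered deviations correlated at -0.43 to 0.13. A replicate block gave 37 higher and 2 lower crop calls, against 38 and 3, and lost 4 single calls, of VIT_216s0039g01300 in Victoria at E-L 38 (adjusted p = 0.0554) and at the first step of winter Victoria (0.0564), of VIT_216s0039g01170 in Muscat Superior at E-L 35 (0.0605) and of VIT_216s0039g01360 over the whole course of summer Victoria (0.0506).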
